A study of Mus musculus with 12 samples.

Results

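The B cell receptor complex and its coreceptors were followed through the activation of mouse B cells by lipopolysaccharide. The set held 9 genes, Cd79a, Cd79b, Cd81, Cd22, Cd72, Fcgr2b, Siglecg, Ptpn6 and Ptprc, chosen by name and found by Entrez gene number among the 27179 genes of the count table. All 9 passed the filter on low counts and were among the 12750 genes tested. No measured value was used as a rule for choosing them, but earlier results of these data were known when they were chosen.

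The B cell receptor joins a membrane immunoglobulin, which binds antigen, to a pair of signalling chains, Igα and Igβ, whose cytoplasmic tails carry the tyrosine motifs that Src family kinases phosphorylate. Coreceptors set how strong that signal becomes: the tetraspanin CD81 belongs to the activating coreceptor, whereas CD22, Siglec-G, CD72 and the Fc receptor FcγRIIb carry inhibitory motifs that recruit phosphatases. The phosphatase SHP-1 dampens the signal, and CD45 removes inhibitory phosphates from Src kinases. Plasmablasts are the antibody-secreting descendants of activated B cells.

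RNA-Seq was performed on 12 libraries, with 2 biological replicates at each of 6 stages of B cells from the spleens of C57BL/6 mice (adult males of a C57BL/6 Pep3b background in the study's methods), with no transgene named for these samples. Naive B cells were untreated and were sorted as TCRβ-negative cells with B220, IgM and high IgD. Cells activated with 25 μg/ml lipopolysaccharide, an agonist of the Toll-like receptor TLR4 and not a ligand of the antigen receptor, were taken at 3, 10 and 33 h, the last of these before the first division. Both remaining populations came from lipopolysaccharide cultures on day 4: expanded B cells were sorted as CD22+CD138- and plasmablasts as CD22-CD138+. For the level of Cd22 in these last populations, selection by the gate and a change within cells therefore cannot be told apart. B220, used in the naive gate, is a product of Ptprc.

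Total counts ran from 23026619 to 60585587 per library. Expression is given as RPKM (reads per kilobase of exon, scaled to library size), computed from the deposited counts and exon lengths with TMM-scaled library sizes, with replicate 1 before replicate 2. Differential expression (DE) was called with glmTreat of edgeR, for changes larger than 1.5-fold at an adjusted p (Benjamini-Hochberg, all tested genes) under 0.05. The order of a gene's levels was read with the quasi-likelihood F-test, which has no fold threshold. In the F-test 71% of all tested genes differed between naive B cells and 3 h, 67.7% between naive B cells and 10 h, 71% for 33 h, 73.1% for expanded B cells and 74.1% for plasmablasts. Set against 3 h, the shares were 62.3% (10 h), 70.5% (33 h), 73.3% (expanded) and 77.4% (plasmablasts), and against 10 h they were 45.5% (33 h), 61.7% (expanded) and 72.2% (plasmablasts). The remaining pairs gave 39.6% from 33 h to the expanded stage, 67.4% from 33 h to plasmablasts and 56.9% for the last transition. With 2 libraries a stage, the smallest two-sided p of an exact permutation test is 0.333, and the smaller p-values given here borrow the spread from other genes and stages through the fitted model. The B cell marker Ms4a1 had at least 13174 counts in every library. Of the 8 B cell genes checked, only Ighm was higher in plasmablasts than in naive B cells when scaled to the library total. Fcer2a went from 60734 and 49780 counts in naive B cells to 124 and 138 in plasmablasts. Ighd went from 98252 and 75225 to 63 and 114, and Pax5 from 16670 and 12005 to 215 and 220. Sdc1, which encodes CD138, had 47.6 and 48 RPKM in plasmablasts against 1.27 and 1.71 in expanded B cells. These populations were sorted apart on CD138 too, and naive B cells had 8.54 and 7.72 RPKM of Sdc1. Of the 6 plasmablast genes checked, only Irf4 was not highest in plasmablasts. It had 59588 and 74076 counts at 3 h against 26718 and 38530 in plasmablasts. Erythroid and neutrophil markers were highest in naive B cells: 5 of 6 erythroid genes were in the table and summed to 196 and 146 CPM (counts scaled to the library total) there and to at most 2.11 elsewhere, and the 5 neutrophil genes summed to 100.3 and 36.5 CPM there and to at most 0.0628 elsewhere. The T cell gene Cd3e had 9 and 3 counts in naive B cells and at most 1 in any other library. Cd3g was instead highest in plasmablasts, at 33 and 27 counts against 15 and 12 in naive B cells. The 8 T cell genes together summed to 22.5 to 80.7 CPM over all libraries. Lck made up most of this sum before the plasmablast stage (59.8 and 64.1 CPM in naive B cells), and Cd28 most of it in plasmablasts (64.3 and 71.6 CPM). The 4 NK cell genes summed to 9.42 and 7.53 CPM in naive B cells and to at most 0.395 elsewhere, and the 5 dendritic cell genes to between 6.99 CPM in naive B cells and 80.3 at 3 h. Zbtb46 made up most of the dendritic cell sum at 3 h, with 72.9 and 46 CPM. In these bulk libraries, fewer cells of a type and less RNA per cell cannot be told apart.

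The DNA just before the annotated starts of Cd79a and Fcgr2b is shown because these genes moved in opposite directions from 3 h to 10 h. RefSeq promoter windows of GRCm38.p6 matched 8 of the 9 genes, and the 250 bases upstream of the start were searched on both strands for the letters GGAAGT (an ETS core), CACCTG (an E-box), CCCNNGGGA (an EBF motif), ATTTGCAT (the octamer) and AGTGAAAG (a PRDM1 motif), and for an ETS-IRF composite and an NF-κB motif. Capitals mark every match, read 5′ to 3′ on the strand of the gene.
Cd79a, chr7:24897247-24897496, plus strand: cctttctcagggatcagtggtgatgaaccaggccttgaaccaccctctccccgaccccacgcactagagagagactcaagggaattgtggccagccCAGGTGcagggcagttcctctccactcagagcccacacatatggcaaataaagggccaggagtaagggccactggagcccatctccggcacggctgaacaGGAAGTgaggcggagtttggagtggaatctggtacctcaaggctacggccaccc
Fcgr2b, chr1:170976072-170976321, minus strand: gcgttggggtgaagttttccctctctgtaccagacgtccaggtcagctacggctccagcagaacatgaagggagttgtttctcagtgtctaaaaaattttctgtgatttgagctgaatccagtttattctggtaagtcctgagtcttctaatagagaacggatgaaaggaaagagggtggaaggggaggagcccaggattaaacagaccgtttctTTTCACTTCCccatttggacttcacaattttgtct

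Counted back from the start, with -1 as the base before it, the first base of the ETS core lay at -54 in Cd79a and that of the E-box at -154. The Fcgr2b window held the composite at -35 and an ETS core at -31, both on the opposite strand, with the core inside the capitals of the composite. The ETS core stood in 19.7% of 32851 windows of the same length, the E-box in 17.2% and the ETS-IRF composite in 2.3%. None of the other 4 motifs matched either window. A match describes letters and not a bound site. Only these exact letters were searched, so a missing match does not show that a site is absent.

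Both signalling chains were the most abundant transcripts of the set and lost most of their level, Cd79a sooner and with a partial return. Cd79a encodes Igα (Entrez 12518, chromosome 7 of GRCm38.p6 from 24897497 to 24901858). It stood at 2533 and 2351 RPKM (naive B cells), 1031 and 1054 (3 h), 463 and 454 (10 h), 767 and 627 (33 h), 1069 and 1099 (expanded B cells) and 798 and 734 (plasmablasts). The libraries at 10 h were the lowest of the course, at 19% and 18.6% of the naive mean, and every library after the naive stage lay at or below 45% of it. Its fall was DE from naive cells to 3 h, at -1.23 on the log2 scale (SE 0.1, adjusted p = 7e-06 from glmTreat), and again from 3 h to 10 h, at -1.18 (SE 0.1, adjusted p = 2.9e-05). The later changes, 0.6 to 33 h, 0.64 to expanded B cells and -0.5 to plasmablasts, were not DE beyond 1.5-fold. In the order of its 6 levels, expanded B cells and 3 h were not separated by the F-test (adjusted p = 0.6), nor were plasmablasts and 33 h (adjusted p = 0.22).

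Cd79b encodes Igβ (Entrez 15985, chromosome 11 from 106311341 to 106314562). Its levels were 2165 and 2096 RPKM (naive B cells), 1703 and 1379 (3 h), 829 and 869.7 (10 h), 884 and 704 (33 h), 776 and 791 (expanded B cells) and 717 and 775 (plasmablasts). The 33 h libraries spanned those of 10 h, of expanded B cells and of plasmablasts, and from 10 h onwards no neighbours in the order were separated, with adjusted p-values of 0.51, 0.92 and 0.62 in the F-test. The step from 3 h to 10 h was DE (log2 fold change -0.86, SE 0.11, adjusted p = 0.015 from glmTreat), although it was not without replicate 1 of 3 h (-0.7, adjusted p = 0.18) or without replicate 1 of 10 h (-0.82, adjusted p = 0.071). With library size alone as the scaling, which moved the median of all tested genes to 0.35 at this transition, it was -0.52 (adjusted p = 0.74). Over the whole course Cd79b ended at 35% of its naive mean and Cd79a at 31.4%.

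The ratio of the chains changed with the stage. Cd79b RPKM divided by Cd79a RPKM was 0.855 and 0.892 (naive B cells), 1.65 and 1.31 (3 h), 1.79 and 1.91 (10 h), 1.15 and 1.12 (33 h), 0.726 and 0.72 (expanded B cells) and 0.899 and 1.05 (plasmablasts). All 4 libraries at 3 h and 10 h lay above every library of the other stages, and both expanded libraries lay below all others.

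**Figure D1:**
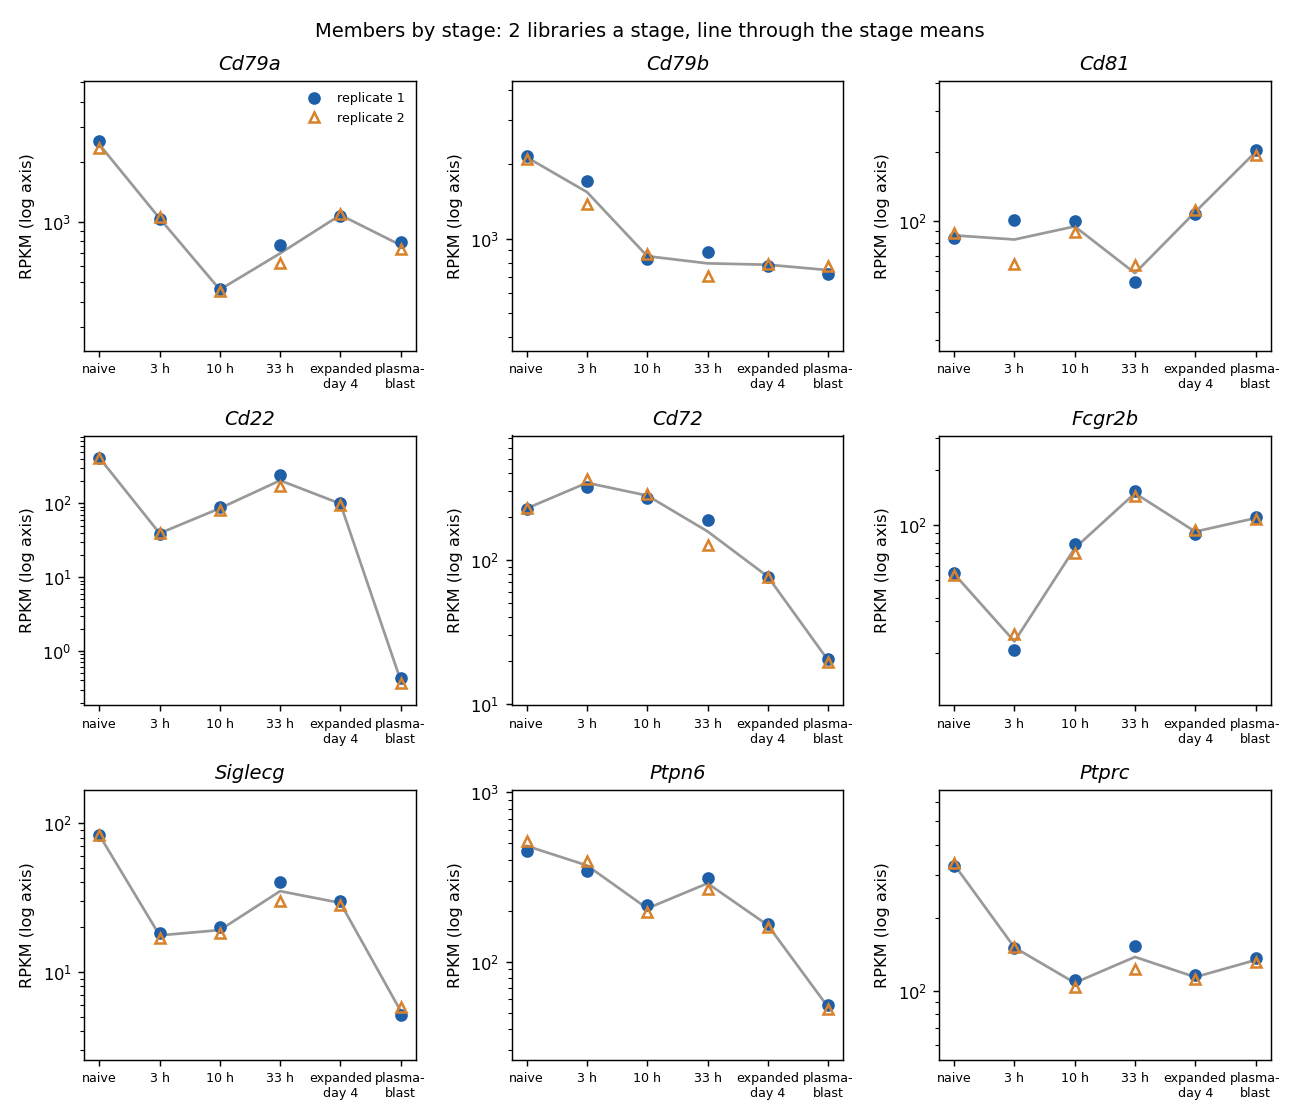
Expression of the 9 genes in RPKM (log axis, a separate range for each gene) at the 6 stages, with a point for each of 2 libraries a stage and a line through the stage means. Cd79a reaches its lowest mean at 10 h (459 RPKM), Cd81 its highest in plasmablasts (199 RPKM), and Cd22 falls to 0.4 RPKM in plasmablasts.

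Cd81 was one of the 2 members that ended above the naive level. It encodes the tetraspanin that organizes the activating coreceptor (Entrez 12520, chromosome 7 from 143052750 to 143067930). Its levels were 84.2 and 88.3 RPKM (naive B cells), 101 and 64.7 (3 h), 99.3 and 89.3 (10 h), 54.1 and 64 (33 h), 107 and 111 (expanded B cells) and 203 and 194 (plasmablasts). The plasmablast libraries stood above all others and those at 33 h below all others, while the 3 h replicates were far apart and spanned the naive pair. From naive cells to plasmablasts the rise was DE, at 1.2 on the log2 scale (SE 0.16, adjusted p = 0.00067 from glmTreat). The last step alone, from expanded B cells to plasmablasts, was 0.87 (SE 0.16, adjusted p = 0.055) and missed the threshold, but it passed under 8 of 15 alternative settings. Expanded B cells, 10 h, naive cells and 3 h were not separated from each other as neighbours in the order of levels (adjusted p = 0.27, 0.49 and 0.74 in the F-test). R74862, which overlaps Cd81, had 15 to 57 counts per library against at least 2742 for Cd81.

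Among the inhibitory receptors, Cd22 and Siglecg, which encode lectins that bind sialic acid, fell early, returned in part and fell again. Cd22 (Entrez 12483, chromosome 7 from 30865404 to 30880342) stood at 413 and 414 RPKM (naive B cells), 38.2 and 40.1 (3 h), 89.5 and 81.4 (10 h), 238 and 171 (33 h), 101 and 96.1 (expanded B cells) and 0.432 and 0.368 (plasmablasts). No libraries of different stages overlapped, but expanded B cells and 10 h were not separated by the F-test (adjusted p = 0.16). Cd22 changed at every transition: by -3.4 on the log2 scale to 3 h (SE 0.14, adjusted p = 8.5e-10 from glmTreat), 1.13 to 10 h (SE 0.13, adjusted p = 0.00054), 1.26 to 33 h (SE 0.12, adjusted p = 2e-04) and -1.05 to expanded B cells (SE 0.12, adjusted p = 0.0039). Without replicate 1 of 33 h, the higher of that pair, the last of these was -0.79 and not DE (adjusted p = 0.072).

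From expanded B cells to plasmablasts, which were sorted apart on CD22, Cd22 changed by -7.95 (SE 0.19, adjusted p = 5.2e-11 from glmTreat). The plasmablast libraries held 44 and 45 counts of Cd22 against 17483 and 13820 in expanded B cells, a 248-fold lower level. Only 23 tested genes had a lower fitted log2 fold change at that transition. By mean RPKM, Cd22 ranked 137 of 12750 genes in naive B cells and 10681 in plasmablasts.

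Siglecg (Entrez 243958, chromosome 7 from 43408192 to 43418349) showed a like course at a lower level. It had 83.6 and 82.7 RPKM (naive B cells), 18.3 and 16.8 (3 h), 20 and 18.3 (10 h), 39.9 and 29.9 (33 h), 30.1 and 28.1 (expanded B cells) and 5.13 and 5.79 (plasmablasts). Naive libraries lay above and plasmablast libraries below all others, and neither 3 h and 10 h (adjusted p = 0.4 in the F-test) nor 33 h and expanded B cells (adjusted p = 0.11) were separated. Its falls to 3 h (-2.25, SE 0.13, adjusted p = 4.2e-08 from glmTreat) and to plasmablasts (-2.41, SE 0.14, adjusted p = 7.7e-08) were DE, as was the rise from 10 h to 33 h (0.87, SE 0.12, adjusted p = 0.036). That rise was not DE without replicate 2 of 10 h (0.81, adjusted p = 0.19), without replicate 1 of 33 h (0.64, adjusted p = 0.47), with library size alone (0.81, adjusted p = 0.077) or with the removed genes kept (0.84, adjusted p = 0.055). Unlike CD22, Siglec-G was not named in any sorting gate.

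Cd72, which encodes a C-type lectin-like inhibitory receptor (Entrez 12517, chromosome 4 from 43447724 to 43455102), followed another order and fell late. It stood at 226 and 229 RPKM (naive B cells), 320.4 and 365 (3 h), 271 and 289 (10 h), 189.7 and 127 (33 h), 76.7 and 76.9 (expanded B cells) and 20.7 and 19.7 (plasmablasts). The 3 h libraries were the highest of the course, but the change to 3 h was 0.59 (SE 0.14, adjusted p = 0.4 from glmTreat) and was past the threshold only in the F-test (adjusted p = 0.0025). Neither 3 h and 10 h (adjusted p = 0.091 in the F-test) nor 10 h and naive cells (adjusted p = 0.082) were separated. Its falls to expanded B cells (-1.04, SE 0.14, adjusted p = 0.011) and to plasmablasts (-1.93, SE 0.15, adjusted p = 3.7e-06) were DE. The 33 h replicates lay apart, and without replicate 1 the change from 10 h to 33 h was -1.14 and DE (adjusted p = 3e-04) where it had been -0.82 (adjusted p = 0.1), and the change to expanded B cells was -0.72 and not DE (adjusted p = 0.24). That last fall was not DE without replicate 1 (-1.04, adjusted p = 0.054) or replicate 2 (-1.05, adjusted p = 0.057) of the expanded stage either. Tesk1, a kinase gene that overlaps Cd72, had a mean of 35.1 RPKM (naive B cells), 68.8 (3 h), 33.5 (10 h), 17.8 (33 h), 7.75 (expanded B cells) and 15.4 (plasmablasts), and how reads in the overlap were assigned was not tested.

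The ratio of Cd22 to Cd72 RPKM set these courses against each other. It was 1.83 and 1.8 (naive B cells), 0.119 and 0.11 (3 h), 0.33 and 0.282 (10 h), 1.25 and 1.35 (33 h), 1.32 and 1.25 (expanded B cells) and 0.0209 and 0.0187 (plasmablasts). Cd72 was therefore the more abundant transcript at 3 h, 10 h and in plasmablasts, and Cd22 at the other stages, in both libraries of each.

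**Figure D2:**
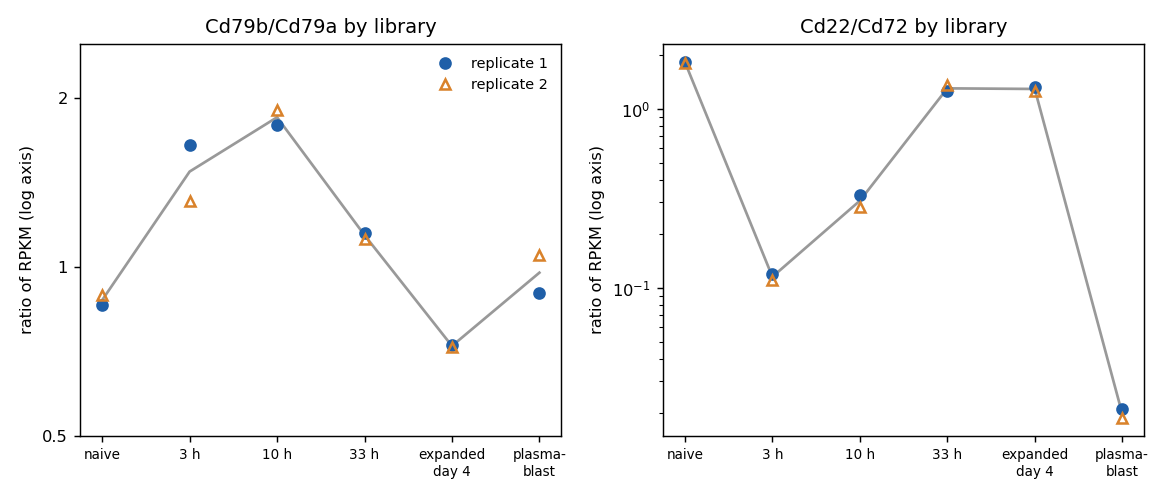
Ratio of RPKM (log axes) in each library at the 6 stages, Cd79b to Cd79a on the left and Cd22 to Cd72 on the right, with a line through the stage means. Cd79b to Cd79a peaks at a mean of 1.85 at 10 h, and Cd22 to Cd72 drops to 0.115 at 3 h and to 0.0198 in plasmablasts.

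Fcgr2b was the other member to end above its naive level, and the only inhibitory receptor of the 4 to do so. It encodes FcγRIIb, which senses bound IgG in immune complexes (Entrez 14130, chromosome 1 from 170960558 to 170976071). Its levels were 54.7 and 53.2 RPKM (naive B cells), 20.7 and 25.4 (3 h), 79 and 70.2 (10 h), 154 and 144 (33 h), 89.5 and 94.2 (expanded B cells) and 110.3 and 108 (plasmablasts). No libraries of different stages overlapped, the 3 h pair was the lowest and the 33 h pair the highest.

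Its fall to 3 h (-1.22, SE 0.11, adjusted p = 1.9e-05 from glmTreat) was followed by DE rises to 10 h (1.69, SE 0.11, adjusted p = 6.9e-07) and to 33 h (1, SE 0.1, adjusted p = 0.0017). All neighbours in the order of its levels differed in the F-test, the closest being plasmablasts and expanded B cells (adjusted p = 0.048). From naive cells to plasmablasts Fcgr2b rose by 1.02 (SE 0.1, adjusted p = 0.00027 from glmTreat), and by 0.73 (adjusted p = 0.062) with library size alone as the scaling, which moved the median of all tested genes to -0.26. Myeloid cells also carry FcγRIIb: all 9 myeloid genes checked were in the table, and they summed to 248 and 142 CPM (naive B cells), 24.9 and 60.7 (3 h), 159 and 114 (10 h), 128 and 119.9 (33 h), 147 and 146 (expanded B cells) and 14 and 16.4 (plasmablasts). Of these 9, Fcgr1 and Cd14 were at 0 in both libraries at 3 h, and Lyz2, at 5032 and 1642 counts in naive B cells, had 0 to 2 counts in every later library. Other genes of the 9 rose after 3 h as Fcgr2b did: Mpeg1 had 20.2 and 53.7 CPM at 3 h against 146 and 104 at 10 h, Itgam 0.955 and 0.343 at 3 h against 17.9 and 13.5 at 33 h, and Adgre1 1.43 and 4.19 at 3 h against 6.99 and 6.25 at 10 h. The part of such cells in the levels of Fcgr2b was not tested. Fcgr3, a neighbouring and similar Fc receptor gene with which reads could be split, had at most 3.27 RPKM in any library.

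The phosphatase genes declined by different amounts. Ptpn6 encodes SHP-1 (Entrez 15170, chromosome 6 from 124720707 to 124738709), which the inhibitory receptors recruit. It stood at 448 and 516 RPKM (naive B cells), 345 and 395 (3 h), 215 and 197 (10 h), 312 and 268 (33 h), 167 and 161 (expanded B cells) and 55.1 and 52.6 (plasmablasts). No libraries of different stages overlapped, and all neighbours in the order differed in the F-test (adjusted p of at most 0.014). DE falls occurred to 10 h (-0.85, SE 0.1, adjusted p = 0.012 from glmTreat), to expanded B cells (-0.82, SE 0.1, adjusted p = 0.047) and to plasmablasts (-1.61, SE 0.11, adjusted p = 1e-06). The first was lost without replicate 2 of 3 h (-0.73, adjusted p = 0.091) or of 10 h (-0.78, adjusted p = 0.08) and with library size alone (-0.52, adjusted p = 0.76), and the second under 9 of 15 alternative settings, with adjusted p-values up to 0.35.

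Ptprc, which encodes CD45 (Entrez 19264, chromosome 1 from 138062859 to 138175756), was DE at a single consecutive transition. Its levels were 327 and 337 RPKM (naive B cells), 150.5 and 151 (3 h), 111 and 104 (10 h), 153 and 123 (33 h), 116 and 112 (expanded B cells) and 136 and 132 (plasmablasts). Naive libraries were more than 2-fold above every other library, and the remaining stages lay close together. The fall to 3 h was DE (-1.14, SE 0.1, adjusted p = 2.7e-05 from glmTreat), and each later step was under 0.5 in size on the log2 scale and not DE. These later, smaller steps did pass the F-test, with adjusted p-values of 0.00062, 0.0078, 0.032 and 0.049 in order of stage. In the order of levels, 3 h and 33 h (adjusted p = 0.25 in the F-test), 33 h and plasmablasts (0.7), and expanded B cells and 10 h (0.49) were not separated. Gene counts do not resolve the isoforms of CD45, and the epitope B220 belongs to 1 of them.

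Counted over the set, 5 of 9 genes fell and 0 rose from naive cells to 3 h, where 45.3% of all tested genes were DE, 21% upwards and 24.3% downwards. The 5 were Cd79a, Cd22, Fcgr2b, Siglecg and Ptprc. The F-test called 8 of the 9 and 71% of all tested genes. The median log2 fold change of the 9 genes was -1.14, against -0.03 over all tested genes. The erythroid, neutrophil and myeloid sums given above were also higher in naive cells than at 3 h, and their part in these falls was not tested.

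From 3 h to 10 h, 2 members rose (Cd22 and Fcgr2b) and 3 fell (Cd79a, Cd79b and Ptpn6), where 30.8% of all tested genes were DE, 17.4% upwards and 13.4% downwards. From 10 h to 33 h, 3 rose (Cd22, Fcgr2b and Siglecg) and 0 fell, where 14.5% were DE, 10.1% upwards and 4.45% downwards. The 3 encode inhibitory receptors, and the call of Siglecg was lost under 4 of 15 alternative settings. The remaining inhibitory receptor gene, Cd72, changed the other way, by -0.82 (adjusted p = 0.00054 in the F-test, 0.1 from glmTreat). The median of the set was -0.29 at the former transition and 0.49 at the latter, against 0.02 and -0.02 over all tested genes.

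From 33 h to expanded B cells 3 members fell (Cd22, Cd72 and Ptpn6), where 10.6% of all tested genes were DE, 6.94% upwards and 3.66% downwards. This count rested on single libraries, since it was 0 without replicate 1 of 33 h and 1 without either replicate of the expanded stage. From expanded B cells to plasmablasts 4 fell (Cd22, Siglecg, Cd72 and Ptpn6) and 0 rose, where 26.1% of all tested genes were DE, 13.9% upwards and 12.2% downwards. Of these 4, Cd22 encodes a protein on which the populations were sorted apart. Selection by the gate and a change within cells cannot be told apart in its fall. At this transition Cd79b changed by -0.07 (SE 0.11), Fcgr2b by 0.25 (SE 0.1) and Ptprc by 0.24 (SE 0.09), none of them DE beyond 1.5-fold.

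Between the ends of the course all 9 genes differed, where 50% of all tested genes were DE, 26.6% upwards and 23.4% downwards. Cd81 and Fcgr2b rose and the other 7 fell, by log2 fold changes of -10.02 for Cd22, -3.93 for Siglecg, -3.5 for Cd72, -3.16 for Ptpn6, -1.67 for Cd79a, -1.51 for Cd79b and -1.31 for Ptprc. The comparison shares its libraries with those of the first and last transitions.

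**Figure D3:**
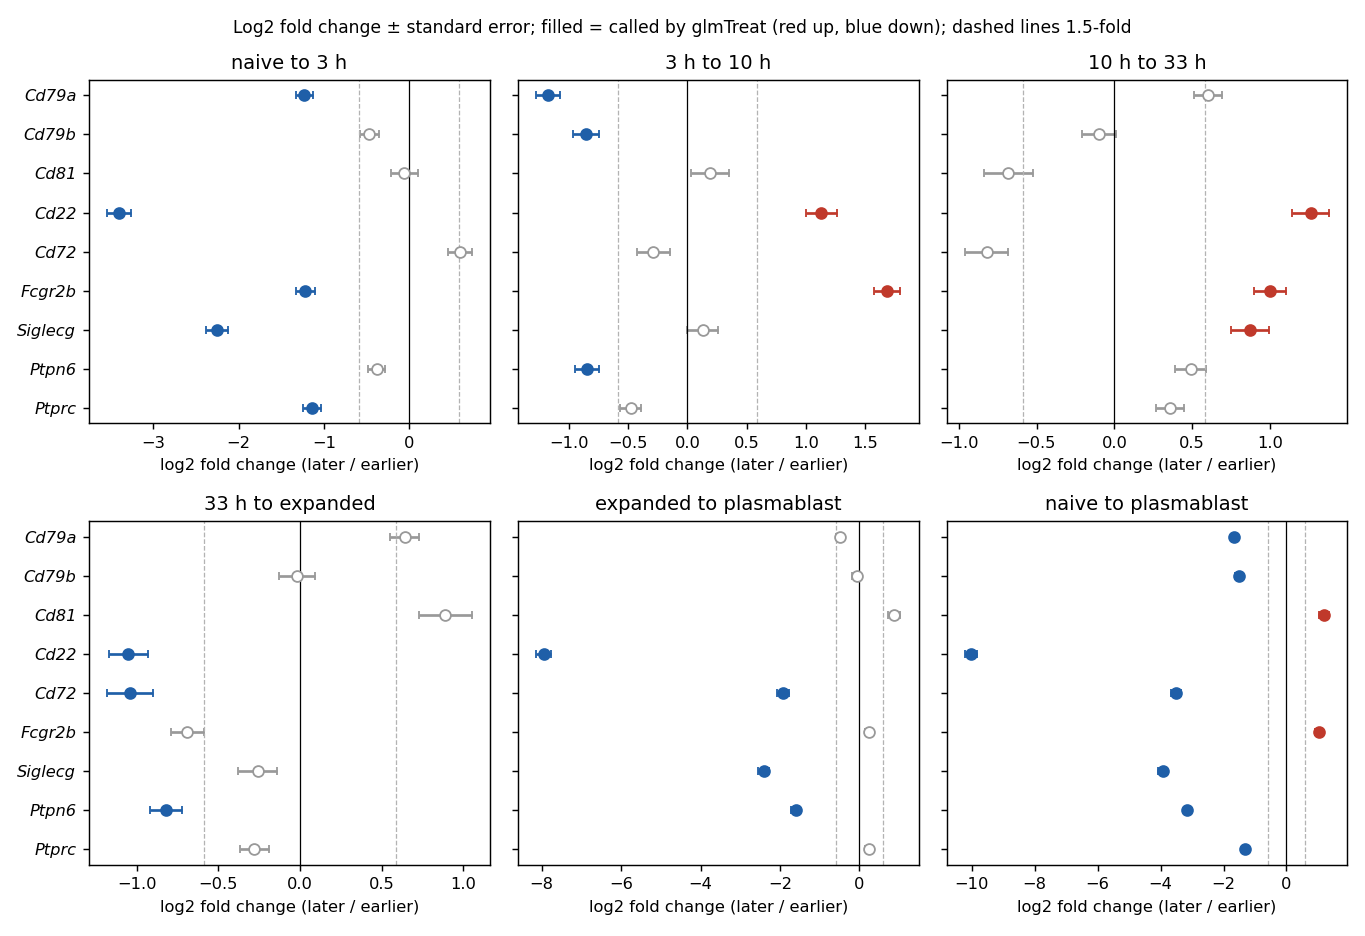
Log2 fold change ± standard error of the 9 genes (x axis, later over earlier stage) in each of 6 comparisons, with filled points where glmTreat called the gene, red for up and blue for down, and dashed lines at 1.5-fold. Called falls number 5 from naive cells to 3 h and 4 from expanded B cells to plasmablasts, and called rises number 3 from 10 h to 33 h.

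The order of the 9 genes by mean RPKM changed between the ends. In naive B cells it ran from Cd79a (2442) and Cd79b (2130.4) through Ptpn6 (482), Cd22 (414), Ptprc (332), Cd72 (228), Cd81 (86.2) and Siglecg (83.2) to Fcgr2b (54). In plasmablasts it ran from Cd79a (766) and Cd79b (746) through Cd81 (199), Ptprc (134), Fcgr2b (109), Ptpn6 (53.8), Cd72 (20.2) and Siglecg (5.46) to Cd22 (0.4). The signalling chains stood at the top of both orders. Fcgr2b stood below Cd22, Siglecg, Cd72 and Ptpn6 in naive B cells and above them in plasmablasts, as did Cd81 apart from Siglecg, which it already exceeded in naive B cells. The order was not tested between genes.

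Across the 12 libraries, Pearson correlations of log2 CPM describe which members had like courses, with the caution that replicates of a stage share its level and that all pairs share the same libraries and scaling. Cd22 and Siglecg gave the highest value (r = 0.93), followed by Cd72 and Ptpn6 (0.9), Cd22 and Ptpn6 (0.88) and Cd79a and Ptprc (0.87). Every value for Cd22 includes day 4 levels from populations that were gated on CD22. Cd79a and Cd79b gave 0.78. Cd81 was negative against Ptpn6 (-0.84), Cd22 (-0.83) and Cd72 (-0.8), and Fcgr2b was negative against Cd79b (-0.73).

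Out of 5608 other genes that averaged 5 or more in log2 CPM, the closest in course over the 12 libraries were, by the same measure, Cyrib (r = 0.995), Twf2 and Id3 for Cd22, and Rac2 (0.993), Cnn2 and Arid3b for Siglecg. Cd72 was closest to Usp24 (0.99), Ccr7 and Nelfb, and Ptpn6 to Aff3 (0.99), Ap1m1 and Eml4. For the signalling chains they were Nop53 (0.988), Cdc42se1 and H2-Eb2 for Cd79b, and Fmnl1 (0.954) and Eif3f were among the closest for Cd79a. Fcgr2b was closest to Vwa8 (0.985), Aarsd1 and Tubg1, Ptprc to Psd4 (0.982) and Itpr2, and Cd81 to Il6st (0.947), Clcn3 and Saraf.

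The members were set beside 5 lists of other genes of the pathway, whose named examples are the called genes with the largest changes. A list of 25 further genes was grouped here as brakes of the signal, among them inhibitory receptors, adaptors and phosphatases. Whether each of them dampens the signal was not tested. The list had 15 genes down and 1 up from naive cells to 3 h, or 60% and 4% against 24.3% and 21% of all tested genes. Its median log2 fold change was -1.42, against -0.03 over all tested genes. Ptpn11, which encodes the phosphatase SHP-2, rose by 0.81 (SE 0.1, adjusted p = 0.013 from glmTreat). Cd300a went from 137 and 58 counts to 0 and 0, which is at least 23.7-fold lower when 3 counts are allowed per library. Lair1, another inhibitory receptor, went from 109 and 81 counts to 1 and 1, or 1.3% of the earlier level (95% exact binomial interval 0.156% to 4.75%, counting error only). Both are also found on myeloid cells, whose markers fell at the same transition as given above, and their part was not tested.

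From expanded B cells to plasmablasts the same list had 12 genes down and 4 up (48% and 16%, against 12.2% and 13.9% of all tested genes), with a median of -0.97. Pirb, which encodes a paired immunoglobulin-like inhibitory receptor, went from 707 and 527 counts to 3 and 4 (-6.92, SE 0.41, adjusted p = 6.2e-08 from glmTreat), and Ceacam1 from 2153 and 1883 counts to 20 and 25 (-5.99, SE 0.21, adjusted p = 1.1e-09). Fcrla (1.65) and Cd5 (1.31) rose most, the latter from 80 and 54 counts to 109 and 125. The myeloid sum was also lower in plasmablasts, as given above. From expanded B cells to plasmablasts, Mpeg1 went from 101 and 101 to 0.651 and 0.861 CPM, Itgam from 24.3 and 21.8 to 0 and 0.0759, and Adgre1 from 13.1 and 13.4 to 0.217 and 0.278, while Cd68 was 7.74 and 8.99 against 12.5 and 14.4 and Lyz2 was at 0 in all 4 libraries. The part of such cells in these falls was not tested. Over the whole course 19 of the 25 genes of this list fell and 1 rose (76% and 4%, against 23.4% and 26.6% of all tested genes).

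A list of 31 transducers, the kinases, adaptors and channels that carry the signal, had 29 genes tested. From naive cells to 3 h, 10 fell and 3 rose (34.5% and 10.3%, against 24.3% and 21% of all tested genes), with a median of -0.44. Fyn, a Src family kinase (2.34, SE 0.11, adjusted p = 7.7e-09 from glmTreat), and Orai1, a calcium channel (1.76), rose most, whereas the adaptor gene Dapp1 (-2.36) fell most. The kinase gene Syk (-0.21) and the phospholipase gene Plcg2 (-0.3) were not DE there. At the last transition 5 fell and 4 rose (17.2% and 13.8%, near the 12.2% and 13.9% of all tested genes), with a median of -0.09 against -0.05 over all tested genes. Prkcb, a protein kinase C (-2.46), fell most, and Vav3 (2.55) and the adaptor gene Nck2 (2.01) rose most. Syk was among the genes that fell there (-0.84, SE 0.09, adjusted p = 0.0059 from glmTreat), and Plcg2 was not DE (-0.25).

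Of 20 genes for making, moving, attaching or removing sialic acid, the sugar that CD22 and Siglec-G bind, 7 fell and 2 rose from naive cells to 3 h (35% and 10%, against 24.3% and 21% of all tested genes), with a median of -0.43. Cmah, the enzyme that makes the glycolyl form of the sugar (-3.51, SE 0.18, adjusted p = 1.3e-08 from glmTreat), and Siae, a sialic acid esterase (-3.33), fell most, and the sialyltransferase genes St6galnac4 (2.18) and St3gal4 (1.59) rose most. From expanded B cells to plasmablasts 9 rose and 0 fell, or 45% against 13.9% of all tested genes, with a median of 0.48. St6gal1, which attaches the sugar in the linkage that CD22 prefers, went from 97.9 and 105 RPKM to 476 and 473 (2.23, SE 0.09, adjusted p = 3.9e-09), and Gne, which starts sialic acid synthesis, from 12.9 and 14.8 to 48.4 and 50.1 RPKM (1.83, SE 0.2, adjusted p = 0.00011). Between these same stages the receptors Cd22 and Siglecg fell, as given above.

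Among 18 tetraspanins and partners of the coreceptors, 8 fell and 5 rose from naive cells to 3 h (44.4% and 27.8%, against 24.3% and 21% of all tested genes), with a median of -0.73. The tetraspanin genes Tspan33 (3.97, SE 0.31) and Cd9 (2.96, SE 0.27) rose most, and Igsf8, which encodes a partner of CD81 (-2.92, SE 0.15), and Tspan32 (-2.38, SE 0.23) fell most. Tspan33 rested on few counts, 15 and 9 in naive B cells against 131 and 166 at 3 h. At the last transition 6 rose and 3 fell (33.3% and 16.7%, against 13.9% and 12.2% of all tested genes), with a median of 0.47. Tspan13 rose from 48.6 and 50.8 to 280 and 278 RPKM (2.49, SE 0.13, adjusted p = 3.2e-08 from glmTreat) and Cd63 from 2 and 9 counts to 29 and 39, whereas Ifitm2 (-2.02) and Tspan33 (-1.78) fell. The fall of Tspan33 was from 92 and 60 counts to 15 and 16. Cr2, the complement receptor of the same coreceptor, changed by -1.01 at the first of these transitions and 1.21 at the last, DE at both. Between them it changed by -2.01 to 10 h, 0.64 to 33 h (not DE) and -2.59 to expanded B cells. Its mean was 125 RPKM in naive B cells, 4.01 in expanded B cells and 9.27 in plasmablasts, a change of -3.76 between the ends.

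A list of 17 transcription factors and cofactors that sustain B cell genes had 8 genes down and 2 up from naive cells to 3 h (47.1% and 11.8%, against 24.3% and 21% of all tested genes), with a median of -0.6. Ets1 (-2.27, SE 0.14) and Runx1 (-1.58, SE 0.16) fell most, and Irf8 (1.3) and Pou2f2 (1.12) rose. At the last transition 6 fell and 1 rose (35.3% and 5.88%, against 12.2% and 13.9% of all tested genes), with a median of -0.4. Spib, an ETS family factor, went from 118 and 119 to 2.68 and 2.57 RPKM (-5.5, SE 0.16, adjusted p = 2.2e-10 from glmTreat), Pax5 changed by -3.45 (SE 0.19, adjusted p = 8.6e-08), and Pou2af1, a coactivator of octamer-binding factors, rose by 1.06 (SE 0.1, adjusted p = 0.00026).

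**Figure D4:**
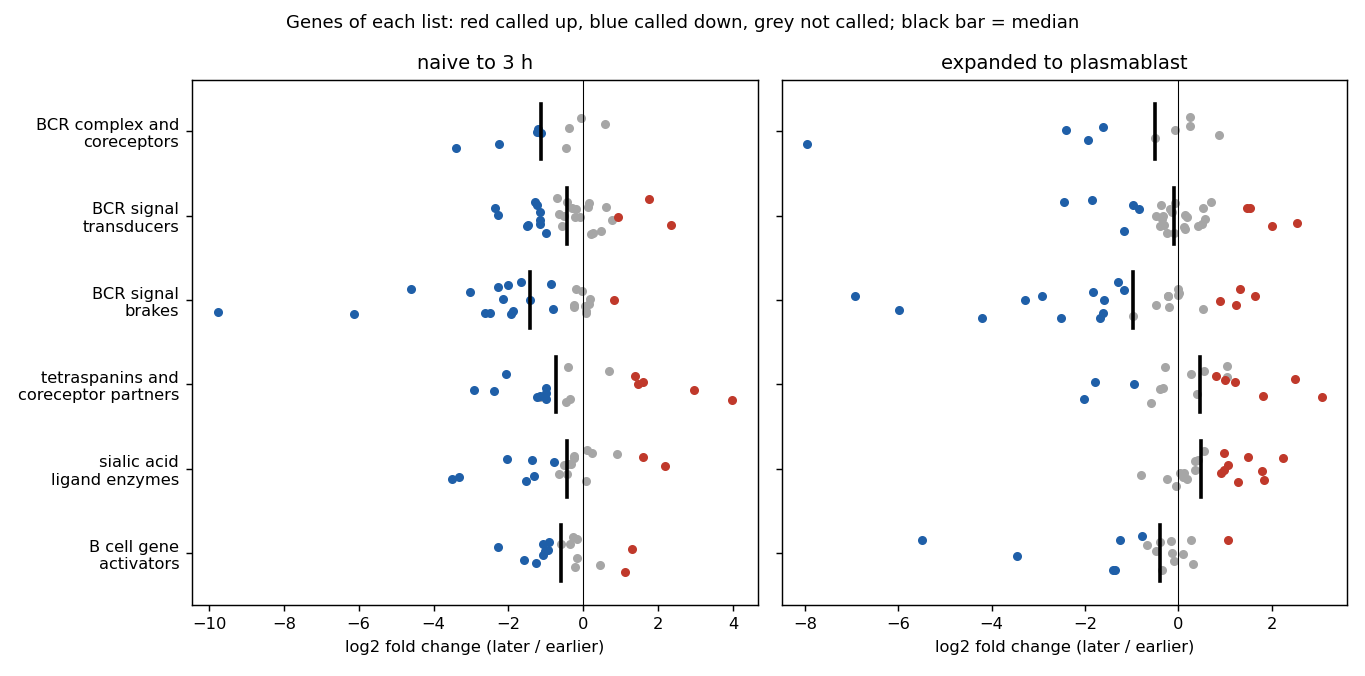
Log2 fold change (x axis, later over earlier stage) of each tested gene of the receptor set and of 5 lists of other pathway genes, from naive cells to 3 h on the left and from expanded B cells to plasmablasts on the right, with genes called up in red, called down in blue, others in grey, and a black bar at the list's median. The list grouped as brakes has 15 of 25 genes called down on the left and 12 on the right, and the sialic acid list has 9 of 20 called up and 0 down on the right.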

How the data were processed

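RNA-Seq covered 12 libraries at 6 stages. The authors mapped paired-end reads of TruSeq libraries with Rsubread (mm10) and assigned them to Entrez genes by featureCounts. The deposited values are the raw counts, beside each gene's exon length. The single-sample files held the same counts for all 12 libraries. Whether strand was used is not given in the sources used here.

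Genes were matched to the RefSeq table of GRCm38.p6 (25275 of 27179). Genes without a match, on the sex chromosomes or in mitochondria, ribosomal RNAs and variable immunoglobulin segments were removed. Of the 23700 genes left, 12750 passed filterByExpr. R 4.3.3 was used with edgeR 4.0.16 (TMM, robust quasi-likelihood fit of all libraries in a one-way layout, glmTreat at 1.5-fold, F-test), limma 3.58.1 and DESeq2 1.42.0, at a Benjamini-Hochberg threshold of 0.05. No library column was left unassigned. RPKM were computed here from the counts. Log2 CPM for correlations used a prior count of 2. Steps were tested on simulated data.

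The 9 members and the lists of pathway and marker genes were chosen with earlier results of these data known. Pathway genes named are, in each list at the first and last transitions, those called with the 2 highest and the 2 lowest log2 fold changes. Syk, Plcg2 and Cr2 were named after their values were seen. Of the transducers, Btk lies on the X chromosome and Gab1 did not pass the filter. Some genes that these rules would name are not reported here.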

Additional observations from a re-analysis of the deposited data

How the results depend on the processing

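Of the 5 calls made from naive cells to 3 h and the 4 made from expanded B cells to plasmablasts, none was lost under any alternative run. Without a fold threshold the F-test called 8 members from naive cells to 3 h, 8 from 10 h to 33 h, 7 from 33 h to expanded B cells and 8 from expanded B cells to plasmablasts. With library size alone, 3 members were called from 3 h to 10 h, without Cd79b and Ptpn6, and DESeq2's Wald test called 6 from 10 h to 33 h and 6 from 33 h to expanded B cells. Leaving out 1 library at a time gave 0 to 3 calls from 33 h to expanded B cells. The cause was not tested.

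Changes of sign concerned changes that were not DE. Leaving out 1 library at a time, Cd81 ran from -0.41 to 0.2 from naive cells to 3 h and from -0.08 to 0.55 from 3 h to 10 h, with the turned sign without replicate 2 of 3 h at both. With library size alone, which moves the median of all tested genes to 0.35 from 3 h to 10 h and -0.38 from expanded B cells to plasmablasts, Cd72 was 0.04 at the former, and Fcgr2b was -0.09 and Ptprc -0.1 at the latter. Cd79b ran from -0.27 to 0.06 from 10 h to 33 h, turning without replicate 2 of 33 h, and was 0.01 to plasmablasts without plasmablast replicate 1, and, from 33 h to expanded B cells, 0.01 with DESeq2's size factors, with at least 10 counts in every library, with immunoglobulin constant genes removed too or in DESeq2's Wald test, 0.02 with only the 4 libraries compared and, leaving out libraries, -0.18 to 0.15, turning without replicate 1 of 33 h.

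Replicate numbers gave no clear pairing of the samples: none of 15 pairs of stages had a correlation of deviations over 0.1 (-0.14 to 0.08). For 3 of 6 stages the mean correlation with the same number in the other stages was positive. Low correlations over all genes do not exclude a weak pairing. A replicate block gave 2 calls from 33 h to expanded B cells, losing Ptpn6 (-0.82, adjusted p = 0.056), and changed no other call of a member, while the genes called over the whole table there went from 1352 to 1332. Crossing the numbers at 3 h, an alternative chosen after seeing the data, gave 5 calls from 3 h to 10 h. Under DESeq2's size factors and library size alone, also added for the pathway lists after seeing the data, no count of a list moved by over 1.5 times. With 2 libraries a stage, a change that was not called is not shown to be absent, and Cd22 in plasmablasts rests on 44 and 45 counts.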

Other observations

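The heavy chain genes of the receptor itself took different courses. Ighm, which encodes the constant part of both membrane and secreted IgM, had 5407 and 5506 RPKM (naive B cells), 4425 and 3591 (3 h), 4005 and 4234 (10 h), 5366 and 6891 (33 h), 12151 and 14418 (expanded B cells) and 52151 and 45993 (plasmablasts), and gene counts do not separate the membrane form from the secreted one. Ighd, which encodes that of IgD, had 2879 and 2893 RPKM (naive B cells), 1287 and 1291 (3 h), 1185 and 1416 (10 h), 473 and 246 (33 h), 19.2 and 23 (expanded B cells) and 2.65 and 3.99 (plasmablasts). Immunoglobulin constant genes and Jchain together took 0.733% to 11.5% of the counts of a library.

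Ptprcap, whose product binds CD45, had 758 and 784 RPKM (naive B cells), 336 and 320.2 (3 h), 647 and 622 (expanded B cells) and 1262 and 1256 (plasmablasts). It passed the test downwards from naive cells to 3 h (-1.23, adjusted p = 2.4e-06 from glmTreat) and upwards from expanded B cells to plasmablasts (0.99, adjusted p = 0.00028), a step at which Ptprc was not called (0.24). The activation marker Cd69 had 35.2 and 32.5 RPKM (naive B cells), 269 and 263 (3 h) and 30.4 and 33.2 (10 h). Fcgr4, an activating Fc receptor gene, stayed at or under 3.41 RPKM in every library.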
